A study of Sus scrofa with 36 samples.

Results

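The genes described here encode collagens, laminins and their partners in the basement membrane of the pig heart. They were taken as the rows of the count table with the symbols COL4A1, COL4A2, COL15A1, COL18A1, LAMA2, LAMA4, LAMB1, LAMC1, NID1 and HSPG2. Of these 10 symbols 8 had a row among the 25880 genes of the table, all 8 passed the filter on low counts, and COL4A1 and LAMA2 were not analysed here. Left ventricular RNA of 24 Yorkshire-landrace pigs was sequenced, 3 pigs per group. Infarcts were made in 12 pigs by permanently tying off branches of the left anterior descending and left circumflex coronary arteries, and the other 12 had sham surgery. Every pig was given ketoprofen and enrofloxacin after surgery. Pigs operated on when 2 days old are called Young and those operated on when 14 days old are called Old, and harvest followed after 1 day (Early) or after 1 week (Late). Age at harvest was thus 3 days in the Young Early group, 15 in Old Early, 9 in Young Late and 21 in Old Late. Each infarcted heart was sampled in its infarct zone (IZ) and, apart from it, its border zone (BZ), and a sham heart gave a library of the anterior ventricular wall, which makes 12 groups and 36 libraries.

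Basement membranes are thin sheets of matrix that wrap each cardiomyocyte and smooth muscle cell and underlie the endothelium of every vessel. Laminins, each built of an alpha, a beta and a gamma chain, form a network at the cell surface that binds integrins and dystroglycan. Collagen IV chains form a second, covalently joined network that gives the sheet its strength. Nidogen and the heparan sulfate proteoglycan perlecan link these networks, and collagens XV and XVIII, which carry glycosaminoglycan chains, tie the sheet to the matrix around it.

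In the coordinates of the count table, whose genome build is not given in the sources used here, the genes span COL4A2 (ENSSSCG00000009545) at chr11:76997126-77165491, COL15A1 (ENSSSCG00000005380) at chr1:240710270-240829204, COL18A1 (ENSSSCG00000038089) at chr13:207907834-207985181, LAMA4 (ENSSSCG00000004425) at chr1:78072305-78223968, LAMB1 (ENSSSCG00000015444) at chr9:107671320-107746867, LAMC1 (ENSSSCG00000015555) at chr9:124283137-124405967, NID1 (ENSSSCG00000026819) at chr14:55239632-55348956 and HSPG2 (ENSSSCG00000003514) at chr6:79850757-79921097. COL4A2, COL15A1, COL18A1, LAMC1 and NID1 lie on the forward strand and LAMA4, LAMB1 and HSPG2 on the reverse strand. Each value sums the reads over a gene's exons, from 5271 bases in LAMB1 to 13082 in HSPG2.

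Library totals ran from 8113200 to 39789874 counts with a median of 22553145. The library with the most counts, Young Early BZ replicate 2, stood apart from its group in several of these genes. Library preparation batch followed the groups: all Young Early libraries were in batch 1, all Old Early in batch 2 and all Old Late in batch 3, while Young Late was split over batches 1 and 2. Differences between Old Late and other shams therefore cannot be told apart from batch 3, the split of Young Late lets a fit separate batches 1 and 2, and a zone and its sham shared a batch in 3 of the 4 conditions. RNA integrity numbers ran from 6.3 to 8.4, and were 7.8 to 8.4 in Old Late Sham against 7.1 to 7.6 in Old Late IZ. The 7 cardiomyocyte marker genes with a row were counted in every group, and their summed level lay between 17799 and 89664 CPM (counts per 1000000 counts of a library, after scaling of library totals).

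COL4A2, which encodes a chain of the collagen IV network, was the most abundant of these transcripts per length in 11 of the 12 groups. Per kilobase of exon its mean level was 119.7 ± 10.6 CPM (SD, n = 3) in Young Early Sham and 67.1 ± 7.57 in Old Early Sham. In Old Late Sham the order was turned, with 66.0 ± 4.87 CPM per kilobase for LAMC1, the gamma chain of most laminins, and 61.6 ± 1.28 for COL4A2, which lie within their spread. COL18A1, which encodes collagen XVIII, the precursor of endostatin, ranked next after COL4A2 in 7 of the 8 zone groups, and in Old Early BZ it lay below LAMC1 by less than their spread. Among sham groups COL18A1 ranked next after COL4A2 in Young Early alone, at 59.1 ± 5.00 CPM per kilobase, and in the other 3 LAMC1 and LAMA4 lay above it. The lowest places were held by COL15A1, LAMB1 and NID1 in every sham group, with COL15A1 at 7.48 ± 3.43 and LAMB1 at 9.47 ± 0.743 CPM per kilobase in Young Late Sham, a difference within their spread.

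**Figure D1:**
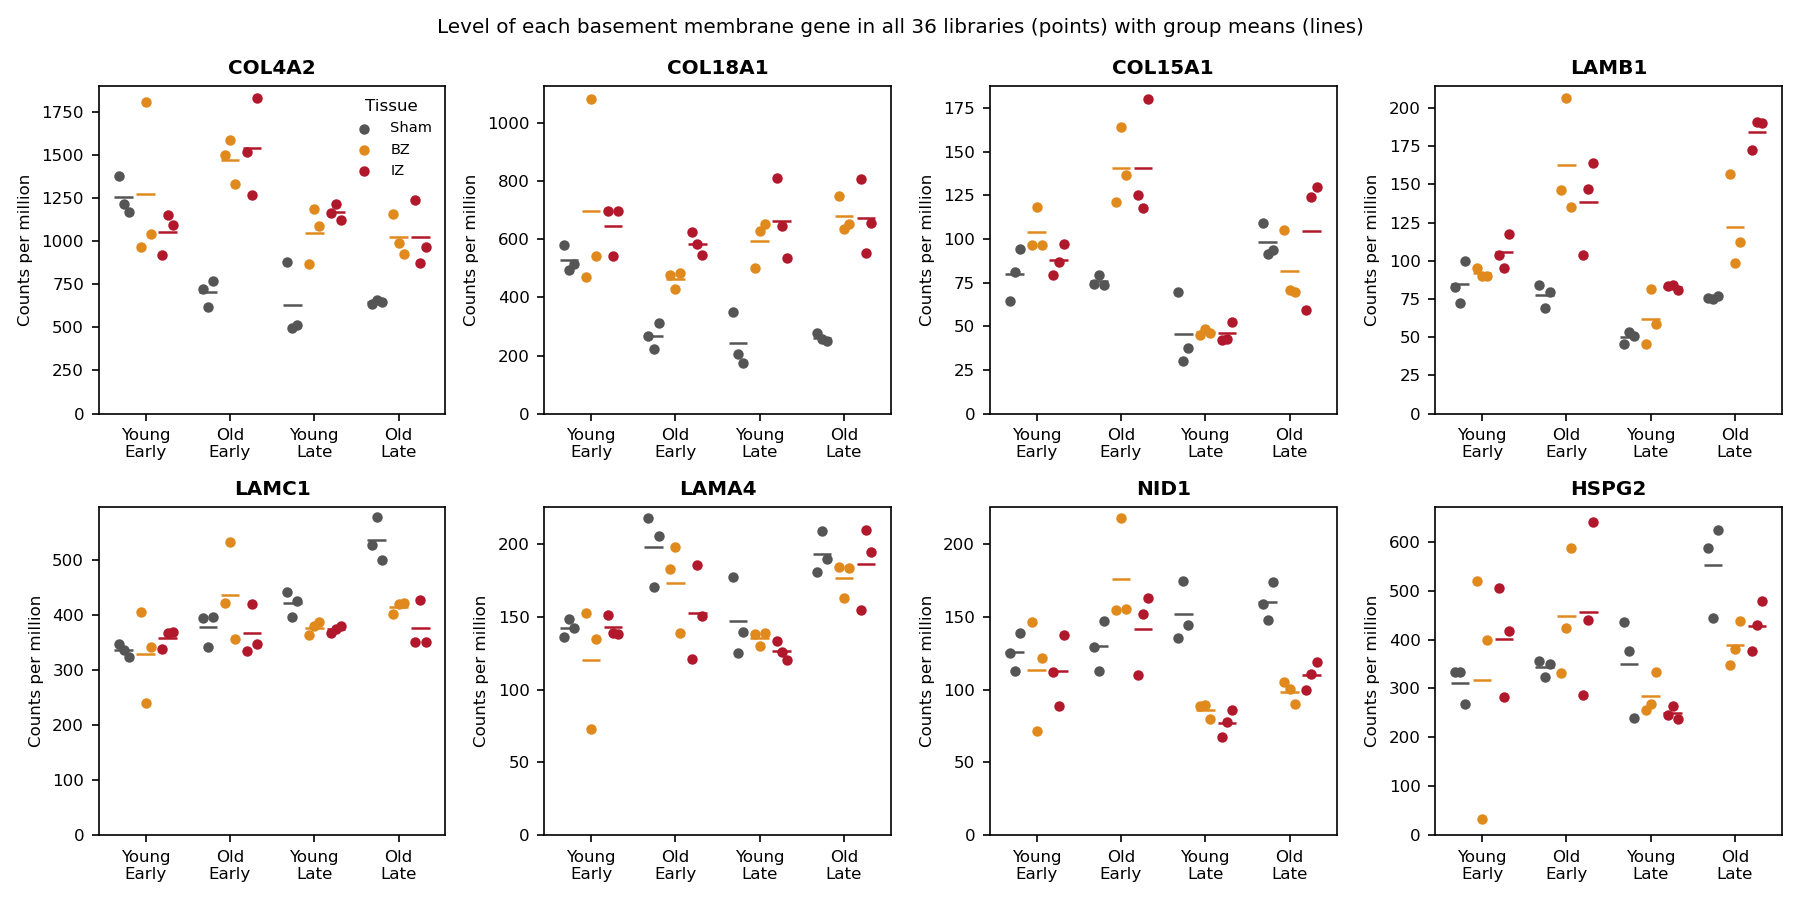
Level of the 8 genes in CPM (vertical axes, linear, each from 0) in the 36 libraries by age and time of harvest (horizontal axes). Each point is 1 library and each line a group mean; grey is sham, orange BZ and red IZ. COL4A2 and COL18A1 were high in Young Early Sham and low in the 3 other sham groups, and Young Early BZ replicate 2 lies apart in COL4A2, COL18A1, LAMC1, LAMA4, NID1 and HSPG2.

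To ask how the injured heart changes at each age, each zone was set against shams matched in age and time. Of the 8 genes, none was called 1 day after an infarct at 2 days of age, and 4 rose 1 day after an infarct at 14 days; the test of the difference between the ages is given further on. Values given as changes are on the log2 scale with their standard error (SE), from edgeR's quasi-likelihood test over all 14537 genes tested, with n = 3 pigs per group. A gene is said to rise or fall where its p, adjusted by Benjamini and Hochberg's method, is under 0.05. In Young Early IZ 0 of 8 passed (0 at an unadjusted p under 0.05, 0 by DESeq2 and 0 by limma-voom), while 26.4% of all genes tested did. In Young Early BZ 0 of 8 passed by each of these measures, against 0.894% of all genes. In Old Early IZ 4 of 8 rose, against 18.9% of all genes that rose, and 0 fell, against 14%. In Old Early BZ the same 4 genes rose, against 13.5% of all genes, and 0 fell, against 7.73%. In bulk tissue such as this, fewer cells of a type and less RNA per cell cannot be told apart.

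At 1 week the same set of genes split, with some members above sham and others below. In Young Late IZ 3 of 8 rose and 1 fell, against 17.3% and 13.1% of all genes. In Young Late BZ 2 rose and 1 fell, against 8.66% and 6.03%. In Old Late IZ 3 rose and 2 fell, against 24.3% and 23.2%, and in Old Late BZ 3 rose and 1 fell, against 19.5% and 18.7%. The median change of the 8 genes was 0.62 in both zones of Old Early, beside 0.00 (IZ) and 0.02 (BZ) for all genes, and −0.08 (Young) and 0.02 (Old) in the Late IZ, beside 0.03 and −0.05.

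**Figure D2:**
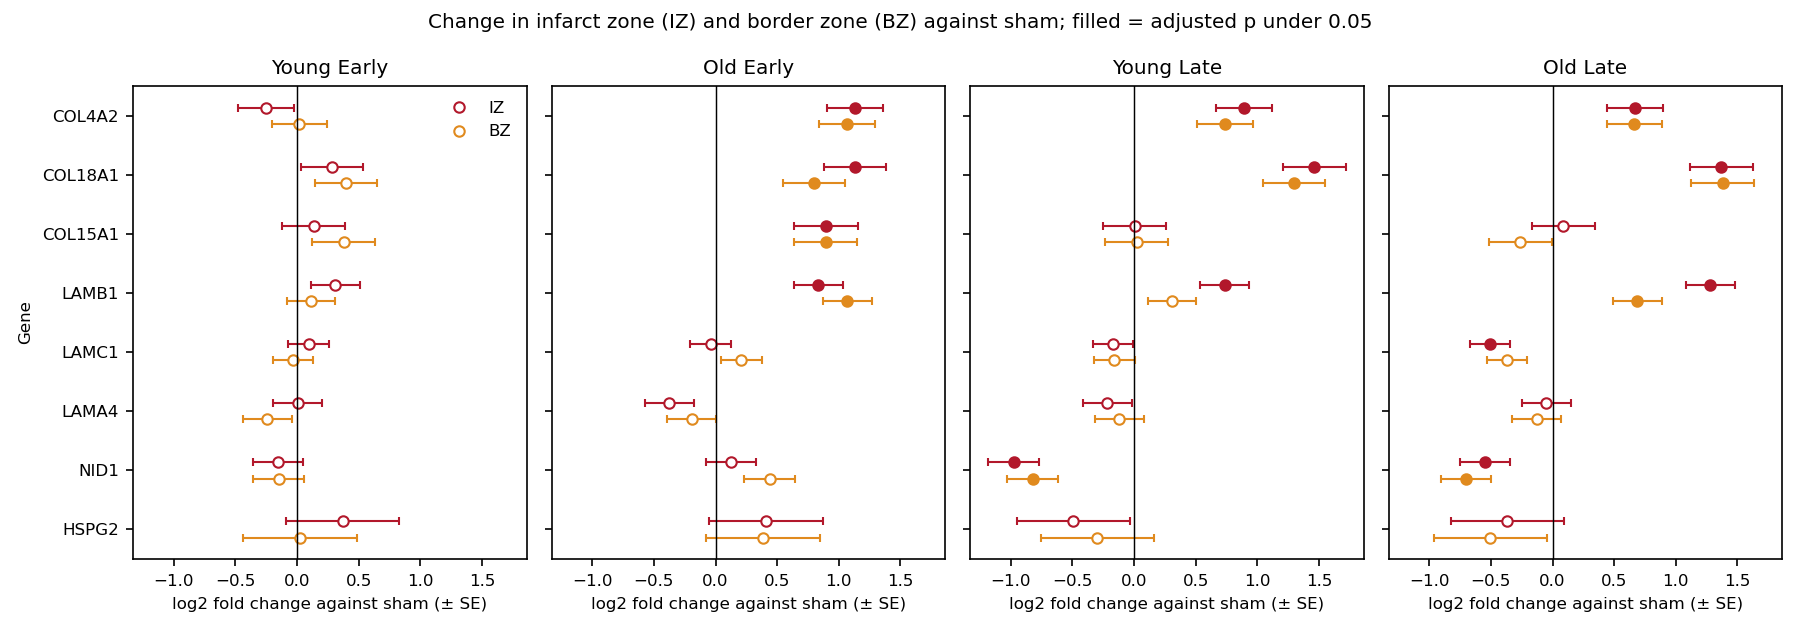
Log2 fold change against sham of the same age and time (horizontal axes) for the 8 genes (vertical axis), with bars of ± 1 standard error from edgeR, in IZ (red) and BZ (orange). Filled points have an adjusted p under 0.05. All points are open in Young Early, COL4A2 and COL18A1 are filled and above 0 in the other 3 conditions, and NID1 is filled and below 0 in both Late conditions.

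The collagen IV gene COL4A2 rose in both zones of every condition but Young Early. Old Early Sham libraries held 725, 616 and 769.6 CPM, Old Early IZ 1516, 1269 and 1833 and Old Early BZ 1502, 1586 and 1330.5. Both zones lay above all shams, at 1.13 ± 0.23 (adjusted p = 0.000432) and 1.07 ± 0.23 (adjusted p = 0.00162). In Young Late, sham libraries held 877, 496 and 513 CPM against 1165, 1217 and 1124 in IZ and 870.1, 1188 and 1090.4 in BZ. Sham replicate 1 stood above the other shams there and overlapped the lowest BZ library, and the changes were 0.89 ± 0.23 (adjusted p = 0.00376) in IZ and 0.74 ± 0.23 (adjusted p = 0.0288) in BZ. In Old Late, sham libraries lay close together at 634, 660.3 and 644 CPM, below 1241, 873 and 966 in IZ and 1155, 991 and 926 in BZ, with changes of 0.67 ± 0.23 (adjusted p = 0.0167) and 0.66 ± 0.23 (adjusted p = 0.022). The Young Late BZ call ended without BZ replicate 2 or 3 or Sham replicate 2 or 3 (0.60 to 0.71), and when only the 2 groups were fitted (0.72). The Old Late BZ call ended without BZ replicate 1 or any 1 of the 3 shams (0.57 to 0.68), and with RNA integrity as a covariate the adjusted p was 0.052 in the Old Late IZ and 0.0843 in its BZ.

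In Young Early the sham hearts themselves were high in COL4A2. Sham libraries held 1380.3, 1218 and 1167 CPM and IZ libraries 919.9, 1151 and 1091. Every IZ library lay below every sham, but the difference did not pass, at −0.25 ± 0.23 (adjusted p = 0.427). Young Early BZ held 969, 1806 and 1039 CPM, with replicate 2 above and the other 2 below all shams. The mean IZ level was 1054 ± 119.99 CPM (SD, n = 3) in Young Early, 1169 ± 46.6 in Young Late, 1027 ± 192 in Old Late and 1539 ± 283 in Old Early.

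COL18A1 rose in the same comparisons with sham as COL4A2. In Old Early, sham libraries held 267, 223 and 312 CPM, IZ 626, 583 and 547 and BZ 477, 429.6 and 486, so that every BZ library lay between the shams and the IZ. The rise was 1.13 ± 0.25 (adjusted p = 0.00113) in IZ and 0.80 ± 0.25 (adjusted p = 0.0249) in BZ, and the BZ call ended without BZ replicate 1 or 3 or Sham replicate 1 or 2 (0.68 to 0.80). In Young Late, shams at 348, 204 and 173 CPM lay below 812, 646 and 538 in IZ and 500.2, 629.5 and 653 in BZ. Those changes, 1.46 ± 0.26 (adjusted p = 0.000101) and 1.30 ± 0.25 (adjusted p = 0.00138), held without each of the libraries in turn. In Old Late, shams held 277, 256 and 249 CPM, IZ 809.7, 554 and 656 and BZ 749, 635 and 655, with no overlap. The rises of 1.37 ± 0.26 (adjusted p = 7.06e-05) in IZ and 1.38 ± 0.26 (adjusted p = 0.000144) in BZ are 2.58-fold and 2.61-fold. Young Early Sham again held the highest sham levels, 582, 496 and 515 CPM, overlapping the IZ at 699.6, 543 and 698 CPM, and BZ held 469, 1084 and 542, where replicate 2 again stood above the rest.

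COL15A1, which encodes collagen XV, the other member of the collagen XVIII family and found beneath muscle and vessel cells, rose early after injury in Old pigs and was not called at 1 week. Old Early Sham held 74.4, 79.4 and 73.5 CPM, IZ 125, 118 and 180.2 and BZ 121, 164 and 137, without overlap. The rise was 0.90 ± 0.26 (adjusted p = 0.00853) in IZ, 0.68 and not called without IZ replicate 3, and 0.89 ± 0.26 (adjusted p = 0.0142) in BZ, 0.77 and not called without BZ replicate 2. At 1 week no zone passed. Young Late IZ held 42.4, 42.8 and 52.7 CPM and BZ 45.0, 48.3 and 46.0, all within the range of the shams at 69.4, 29.9 and 37.6. Old Late IZ held 59.1, 124 and 129.8 CPM against 109, 91.2 and 93.8, with replicate 1 below and the other 2 IZ libraries above all shams, and BZ 105, 70.7 and 69.6, with 2 libraries below all shams and replicate 1 within their range. In Young Early, IZ at 79.4, 86.7 and 97.2 CPM overlapped shams at 64.4, 81.0 and 94.5.

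Among the laminin chains, the beta chain gene LAMB1 rose, while the alpha chain LAMA4 and the gamma chain LAMC1, with which its product assembles in vessel walls, did not rise in any comparison with sham. Old Early Sham held 83.8, 69.2 and 79.5 CPM of LAMB1, IZ 104, 147 and 164 and BZ 147, 206 and 135. LAMB1 rose by 0.83 ± 0.20 (adjusted p = 0.00186) in IZ and 1.07 ± 0.20 (adjusted p = 0.000455) in BZ, and no zone library overlapped a sham. In Young Late, LAMB1 shams held 45.6, 53.2 and 50.9 CPM, IZ the closely spaced values 83.8, 84.2 and 81.1, and BZ 45.3, 81.4 and 58.5. The IZ rose by 0.74 ± 0.20 (adjusted p = 0.00589), and the BZ, with replicate 1 below every sham and replicates 2 and 3 above, was not called at 0.31 ± 0.20 (adjusted p = 0.309). In Old Late the rise of LAMB1 was the largest of its 4 IZ values: shams held 75.8, 75.2 and 77.0 CPM, IZ 172, 191 and 190.2 and BZ 157, 98.3 and 112. The changes were 1.28 ± 0.20 (adjusted p = 6.77e-06) in IZ, which held without each library, and 0.69 ± 0.20 (adjusted p = 0.00746) in BZ, which was 0.47 and not called without BZ replicate 1. Young Early IZ at 104, 95.0 and 118 CPM overlapped shams at 82.9, 72.4 and 99.8.

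LAMC1 changed in a single comparison with sham, and downwards. Old Late Sham held 528, 579 and 501 CPM, the highest of any group, against 351, 427 and 352 in IZ and 402, 419.8 and 423 in BZ. Neither zone overlapped the shams in CPM. That separation rests on the scaling of library totals (TMM): as a share of unscaled totals, IZ and BZ overlap the shams. IZ held 9964, 12763 and 14025 LAMC1 counts in totals of 20215332, 19318850 and 24046165. Shams held 13037, 11781 and 10675 in totals of 23878767, 19745403 and 20580083. The IZ fell by 0.51 ± 0.16 (adjusted p = 0.0119), a call that ended without IZ replicate 1 (−0.37), IZ replicate 3 (−0.40) or Sham replicate 2 (−0.45), and the BZ difference did not pass at −0.37 ± 0.16 (adjusted p = 0.0743). In Old Early, LAMC1 was 335, 420.0 and 348 CPM in IZ and 395, 343 and 397 in shams, overlapping, at −0.04 ± 0.16 (adjusted p = 0.868).

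LAMA4, the alpha chain typical of endothelial basement membranes, was not called in any comparison of a zone with sham. Its IZ libraries lay between 121 and 209.8 CPM and its sham libraries between 125 and 218 CPM. The value farthest from 0 in a zone was that of Old Early IZ, −0.38 ± 0.20 (adjusted p = 0.146), with 121, 186 and 151 CPM against 218, 171 and 206 in shams, which overlap.

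NID1, which encodes nidogen-1, the linker between laminin and collagen IV, fell in both zones at 1 week and was not called at 1 day. In Young Late, shams held 136, 175 and 145 CPM, IZ 67.4, 77.8 and 86.1 and BZ 88.4, 89.1 and 80.0. Each zone library lay below each sham, and NID1 fell by 0.98 ± 0.21 (adjusted p = 0.000786) in IZ, and by 0.82 ± 0.21 (adjusted p = 0.0089) in BZ, a call that ended without Sham replicate 2 (−0.71). In Old Late, shams held 159, 148 and 174 CPM, IZ 99.5, 110.4 and 119 and BZ 105, 101 and 90.1, again without overlap. NID1 fell by 0.70 ± 0.21 (adjusted p = 0.00871) in BZ, and by 0.55 ± 0.21 (adjusted p = 0.0291) in IZ, where the call held without Sham replicate 2 but ended without any 1 of the other 5 libraries (−0.56 to −0.40). With RNA integrity as a covariate the adjusted p of NID1 in Old Late was 0.123 in IZ and 0.0697 in BZ. The Old Late IZ fall also rests on the scaling. As a share of the unscaled totals given above, IZ, at 2829, 3300 and 4748 counts, overlaps shams, at 3930, 3014 and 3707. BZ lies below the shams by that measure too. In Old Early BZ the 3 libraries, at 155, 218 and 155 CPM, lay above all shams at 129, 113 and 147, and the difference did not pass, at 0.44 ± 0.21 (adjusted p = 0.129).

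HSPG2, which encodes perlecan, had the largest SE of the 8 genes, about 0.46, and was not called in any comparison with sham in the fit over all groups. Old Early IZ held 286, 441 and 640.0 CPM, a range that spans the shams at 357, 323 and 349.8. In Young Early BZ the libraries held 519, 32.2 and 399 CPM, so that replicate 2 lay far below every other library of the series. In Old Late BZ, all 3 libraries at 349, 380.2 and 438 CPM lay below the shams at 587, 444 and 625, with a difference of −0.51 ± 0.46 (adjusted p = 0.397). It passed when only those 2 groups were fitted (−0.47, adjusted p = 0.0458).

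Preparation batch could be held fixed in Young Late, with 2 zone and 2 sham libraries in batch 2 and 1 of each in batch 1, which gives values without a test. In log2 CPM with a prior count of 2, IZ minus sham was 1.23 in batch 1 and 0.80 in batch 2 for COL4A2, 1.99 and 1.26 for COL18A1, 0.65 and 0.78 for LAMB1, and −1.37 and −0.78 for NID1. The directions of these 4 genes were thus the same in both batches, though the batch 1 sham is Young Late Sham replicate 2, the library with the fewest counts. COL15A1, at 0.50 and −0.11, and LAMA4, at 0.10 and −0.35, took opposite signs.

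Among the sham hearts the collagen genes differed between groups of different age, which also differ in batch. The shams cover ages from 3 to 21 days without an infarct. Early and Late shams also differ in time since sham surgery, 1 day against 1 week. Between them, age and time since surgery cannot be told apart. COL4A2 and COL18A1 were lower in Old than in Young pigs at 1 day, by 0.84 ± 0.23 (adjusted p = 0.00979) and 0.99 ± 0.25 (adjusted p = 0.00714) on the log2 scale, with 2 of 8 genes lower (13.2% of all genes were) and 0 higher (17%). Between 3 and 9 days of age in Young shams 4 of 8 fell (4.65% of all genes did) and 0 rose (4.53%): COL18A1 by 1.13 ± 0.25 (adjusted p = 0.00895), COL4A2 by 1.00 ± 0.23 (adjusted p = 0.0104), COL15A1 by 0.80 ± 0.26 (adjusted p = 0.0472) and LAMB1 by 0.77 ± 0.20 (adjusted p = 0.019). All 4 calls ended without Young Late Sham replicate 2, the library with the fewest counts (−0.85 for COL4A2, −1.03 for COL18A1, −0.58 for COL15A1 and −0.82 for LAMB1). That of COL15A1 held only without Young Late Sham replicate 1 among the 6 libraries left out in turn, and ended in 4 of 7 other fits (adjusted p = 0.0595 to 0.0944). Those of COL4A2 and COL18A1 also ended without Young Late Sham replicate 3, and that of LAMB1 without Young Early Sham replicate 3. With batch as a term COL4A2 kept its calls between Old and Young at 1 day (−0.96, adjusted p = 0.0462) and over time in Young shams (−1.09, adjusted p = 0.0244). COL18A1 kept the second (adjusted p = 0.0441) and not the first (adjusted p = 0.0846), and LAMB1 did not pass over time (adjusted p = 0.0526).

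COL15A1 and LAMB1 differed between Old and Young pigs in the Late shams. Old Late Sham was all in batch 3 and no other sham was, so age and batch cannot be told apart in this paragraph. At 1 week COL15A1 was higher in Old than in Young shams by 1.10 ± 0.26 (adjusted p = 0.0109) and LAMB1 by 0.61 ± 0.20 (adjusted p = 0.0469), 2 of 8 genes (6.69% of all genes were higher), and 0 were lower (3.75%). The LAMB1 call ended without any 1 of the 6 libraries and in 4 of 7 other fits. That of COL15A1 ended without Young Late Sham replicate 2 (0.87) and with RNA integrity as a covariate (adjusted p = 0.0896), which was 7.8 to 8.4 in Old Late and 6.6 to 7.6 in Young Late shams. Between 15 and 21 days edgeR called 0 of 8 (1 at an unadjusted p under 0.05, 1 by DESeq2, 0 by limma-voom), against 0.0275% of all genes. Over these days the 3 Old Late Sham libraries lay above the 3 Old Early Sham libraries in LAMC1, by 0.50 ± 0.16 (adjusted p = 0.3), and in HSPG2, by 0.69 ± 0.46 (adjusted p = 0.701). Neither passed with edgeR over all groups. Both passed when only the 2 groups were fitted (LAMC1 0.48, adjusted p = 0.0309, and HSPG2 0.67, adjusted p = 0.0276), and LAMC1 passed with DESeq2 (adjusted p = 0.0455).

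Whether the response to infarction depends on age was tested as the change against sham in Old pigs minus that in Young pigs, and edgeR called none of the 8 genes in either zone or at either time. In the Early IZ 0 of 8 passed (3 at an unadjusted p under 0.05, 1 by DESeq2, 0 by limma-voom), against 0.0344% of all genes. COL4A2 came closest, with a response of −0.25 in Young and 1.13 in Old pigs and a difference of 1.38 ± 0.32 (adjusted p = 0.0539). That difference passed with DESeq2 (1.44, adjusted p = 0.00266), in a fit of the 4 groups alone (1.39, adjusted p = 0.0334), and without Young Early IZ replicate 2 (1.45, adjusted p = 0.0435) or Old Early IZ replicate 2 (adjusted p = 0.0151). COL18A1 differed by 0.85 ± 0.35 (adjusted p = 0.144), and by 0.85 with an adjusted p of 0.0483 in the 4 groups alone. In the Early BZ 0 of 8 passed (2 at an unadjusted p under 0.05, 2 by DESeq2, 0 by limma-voom), against 0.199% of all genes. COL4A2 and LAMB1 differed there by 1.05 ± 0.32 (adjusted p = 0.101) and 0.96 ± 0.28 (adjusted p = 0.0902). Without Young Early BZ replicate 2 both passed, at 1.39 (adjusted p = 0.0151) and 0.94 (adjusted p = 0.0344). At 1 week 0 of 8 passed in IZ and 0 of 8 in BZ (0 at an unadjusted p under 0.05, 0 by DESeq2 and 0 by limma-voom in each), against 3.53% and 0.977% of all genes, and the value farthest from 0 was that of LAMB1 in IZ, 0.54 ± 0.28 (adjusted p = 0.267).

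The IZ response of COL4A2 and COL18A1 differed between the times in Young pigs. From Early to Late it was higher by 1.15 ± 0.32 (adjusted p = 0.0216) for COL4A2 and by 1.18 ± 0.36 (adjusted p = 0.0311) for COL18A1, 2 of 8 genes, against 6.15% of all genes with a higher and 6.28% with a lower response. The levels show where the difference lay: COL4A2 in IZ was 1054 ± 119.99 CPM (SD, n = 3) early and 1169 ± 46.6 late, and in sham 1255 ± 111 early and 629 ± 216 late. COL18A1 in IZ was 647 ± 89.97 CPM early and 665 ± 138 late, and in sham 531 ± 44.9 early and 242 ± 93.7 late. Both calls ended without Young Early Sham replicate 1, Young Early IZ replicate 1, or Young Late Sham replicate 2 or 3. With RNA integrity as a covariate the COL4A2 call ended too (adjusted p = 0.0589). The COL18A1 call also ended without Young Early IZ replicate 2 or 3, Young Early Sham replicate 3, or replicate 1 or 2 of Young Late IZ. NID1 did not pass, at −0.82 ± 0.29 (adjusted p = 0.0591), and passed with DESeq2 (adjusted p = 0.0344). In Old pigs 0 of 8 passed (2 at an unadjusted p under 0.05, 0 by DESeq2, 0 by limma-voom), against 4.01% of all genes, with COL15A1 at −0.81 ± 0.36 (adjusted p = 0.241).

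No member passed the test between IZ and BZ of the same heart, and LAMB1 had the most pigs with a higher level in IZ. In a fit with the pig as a block, edgeR called 0 of 8 in each of the 4 conditions, against 10.2% of all genes in Young Early, 0% in Old Early, 0% in Young Late and 1.27% in Old Late. At an unadjusted p under 0.05 there were 0, 0, 1 and 1 members in these conditions, and DESeq2 called 0, 0, 0 and 1. LAMB1 was higher in IZ in 10 of 12 pigs, by 0.05 to 0.89 log2 CPM, and lower in the 2 others, by 0.50 and 0.49, both Old Early. Its Old Late difference was 0.59 ± 0.20 (adjusted p = 0.12), all IZ above all BZ libraries, and passed with DESeq2 (0.62, adjusted p = 0.0496). The other genes were higher in IZ in 4 to 8 of the 12 pigs. HSPG2 in Young Early differed by 0.95 ± 0.49 (adjusted p = 0.205), with 1 pig at 3.13 that holds Young Early BZ replicate 2 and the other 2 at −0.04 and 0.07.

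**Figure D3:**
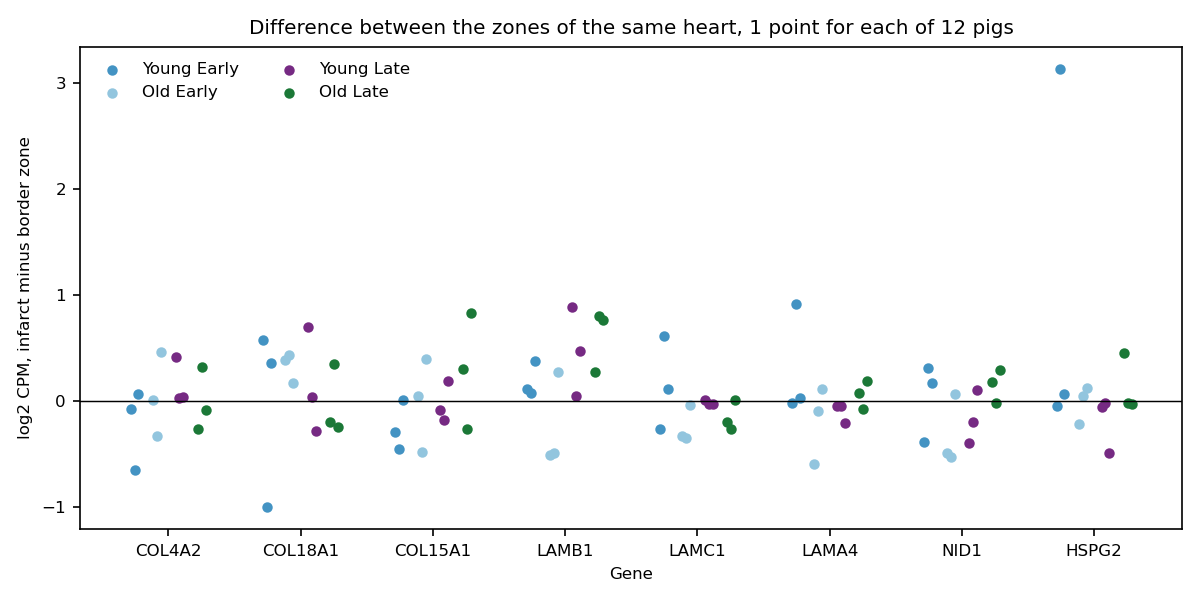
Difference in log2 CPM between IZ and BZ of the same heart (vertical axis) for the 8 genes (horizontal axis), 1 point per infarcted pig and gene, coloured by condition. LAMB1 lies above 0 in 10 of 12 pigs; the HSPG2 point at 3.13 is the pig with Young Early BZ replicate 2.

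The ratio of 2 transcripts within a library does not depend on how libraries are scaled, apart from the 1 CPM added to each here. Below, 3 such balances are described for zone and sham. They pair genes whose changes were already known here, so they are given without a test. Each value is the mean within-condition difference of log2((CPM + 1)/(CPM + 1)) between 12 zone and 12 sham libraries, and IZ and BZ share the shams. The collagen IV to laminin balance, COL4A2 to LAMC1, was higher in IZ by 0.77 and in BZ by 0.72. By condition the IZ difference was −0.35 in Young Early, 1.16 in Old Early, 1.11 in Young Late and 1.16 in Old Late, and the BZ difference 0.03, 0.88, 0.94 and 1.03. Young Early BZ replicate 2, at 2.91, lay above the other 2 libraries of its group, at 1.25 and 1.60, and without it the mean BZ difference was 0.59. In shams this balance was 1.89 ± 0.08 (SD, n = 3) in Young Early, 0.89 ± 0.056 in Old Early, 0.52 ± 0.40 in Young Late and 0.27 ± 0.086 in Old Late, without overlap between Young Early and any other sham group.

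The laminin balance LAMB1 to LAMC1 was higher in IZ by 0.94 and in BZ by 0.62. Its mean was higher in each of the 4 conditions, with IZ differences from 0.22 in Young Early to 1.78 in Old Late and BZ differences from 0.19 to 1.02. Libraries of zone and sham overlapped in IZ and BZ of Young Early and in BZ of Young Late. The balance COL15A1 to COL18A1 was lower in IZ, at −0.79, and in BZ, at −0.68. Its IZ difference was −0.13 and −0.28 in Young and Old Early and −1.41 and −1.34 in Young and Old Late. Its BZ difference was 0.09 and 0.07 in Young and Old Early, opposite in sign to −1.24 and −1.66 in Young and Old Late. Old Late IZ replicate 1, at −3.75, lay below the other 2 libraries of its group, at −2.33 and −2.15.

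**Figure D4:**
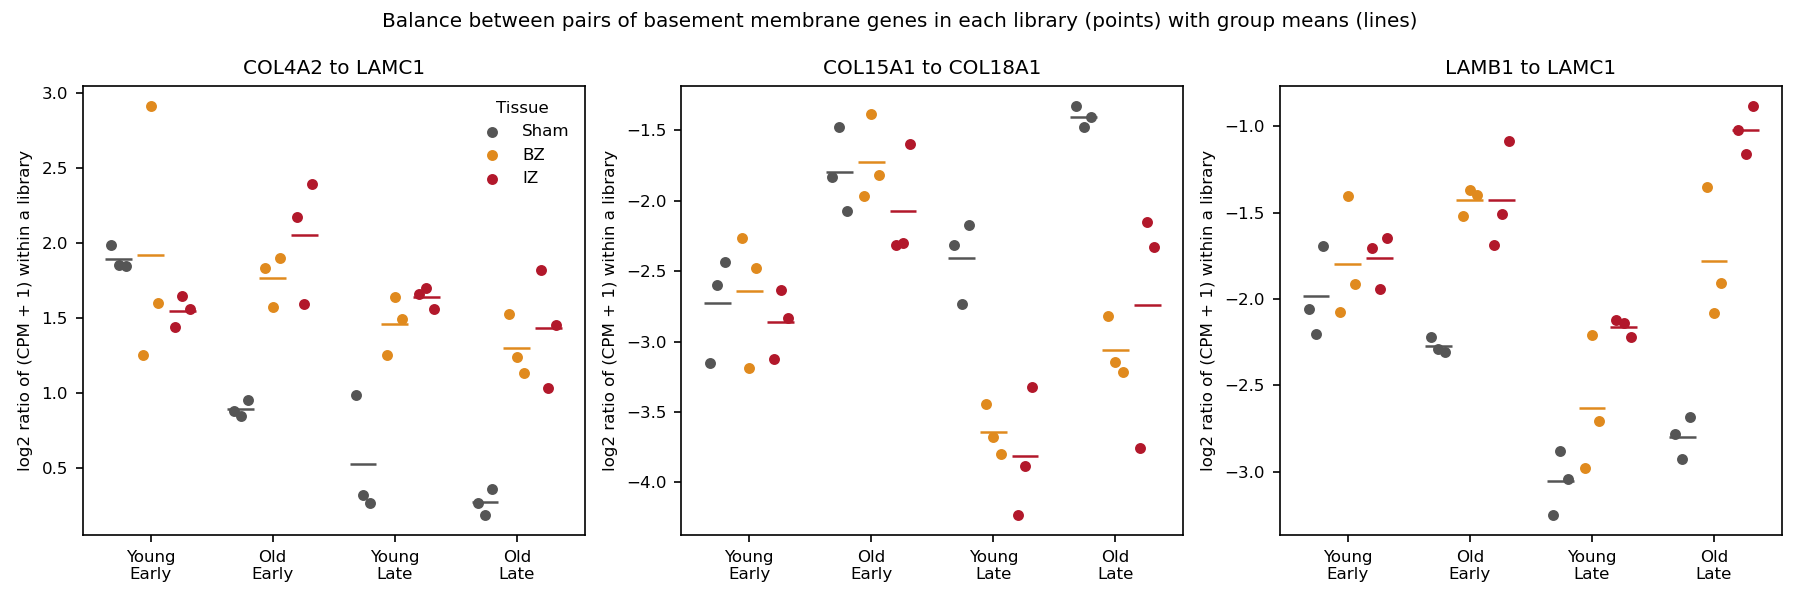
Log2 ratio of (CPM + 1) within a library (vertical axes) for COL4A2 to LAMC1, COL15A1 to COL18A1 and LAMB1 to LAMC1 by condition (horizontal axes); points are libraries, lines group means, grey sham, orange BZ and red IZ. The COL4A2 to LAMC1 ratio of shams is highest in Young Early (mean 1.89), and the LAMB1 to LAMC1 ratio of IZ in Old Late (mean −1.02) is its highest group mean.

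Other genes of the basement membrane were counted from a list of 33, of which 28 were tested. In IZ 4 rose and 1 fell in Young Early, 6 and 3 in Old Early, 8 and 6 in Young Late, and 11 and 5 in Old Late. Young Early, at 5 of 28, lay below the 26.4% of all genes called there, and Old Early lay near the 18.9% and 14% of all genes that rose and fell. These shares were 17.3% and 13.1% in Young Late IZ and 24.3% and 23.2% in Old Late IZ. In BZ 0 changed in Young Early, 6 rose and 2 fell in Old Early, 6 and 4 in Young Late, and 10 and 3 in Old Late. Of all genes 0.894% were called in Young Early BZ. Rises and falls made up 13.5% and 7.73% in Old Early, 8.66% and 6.03% in Young Late and 19.5% and 18.7% in Old Late BZ. The median IZ change was −0.08, 0.09, 0.37 and 0.65 in these conditions, beside 0.08, 0.00, 0.03 and −0.05 over all genes. The nidogen NID2 rose by 1.64 ± 0.35 in Young Early IZ (edgeR adjusted p = 0.00114), where NID1 was not called. COL6A3, a collagen VI chain of the matrix next to the basement membrane, rose by 1.51 ± 0.29 in Young Early IZ, 2.14 ± 0.30 in Old Early IZ and 2.41 ± 0.30 in Young Late IZ. SPARC, which binds collagen IV, rose by 2.12 ± 0.32 in the IZ of Young Late and 3.68 ± 0.34 in that of Old Late. SMOC1, a SPARC relative, rose by 3.37 ± 0.49 in the IZ of Old Late. In BZ of Young Late the hemicentin HMCN1 fell by 2.10 ± 0.60 and the laminin chain LAMA3 by 2.05 ± 0.65.

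LAMB2 and PXDN, chosen after their values were seen, stand next to members. LAMB2 encodes the laminin beta chain that can take the place of the LAMB1 product. It fell in IZ of all 4 conditions, by 1.09 ± 0.19 in Young Early, 1.19 ± 0.19 in Old Early, 0.76 ± 0.19 in Young Late and 1.19 ± 0.19 in Old Late, while LAMB1 rose in the last 3. PXDN encodes peroxidasin, the enzyme that makes the sulfilimine bonds of the collagen IV network. It rose in IZ by 1.74 ± 0.27 in Old Early, 1.42 ± 0.26 in Young Late and 1.29 ± 0.26 in Old Late, the conditions in which COL4A2 rose, and was not called in Young Early at 0.34 ± 0.26. In Early shams PXDN was lower in Old than in Young pigs (−0.92 ± 0.26, edgeR adjusted p = 0.0121), as COL4A2 was.

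Receptors and genes for assembly and for breakdown of the basement membrane were counted in the same way. The shares of all genes to set beside them are 26.4% called in Young Early IZ, and, for rises and falls, 18.9% and 14% in Old Early, 17.3% and 13.1% in Young Late and 24.3% and 23.2% in Old Late IZ. Of 16 receptor genes tested, 5 rose and 2 fell in Young Early IZ, 6 and 0 in Old Early IZ, 2 and 1 in Young Late IZ, and 5 and 4 in Old Late IZ. The integrin beta chain ITGB3 rose by 2.22 ± 0.39, 2.61 ± 0.40, 1.81 ± 0.40 and 3.03 ± 0.40 in these. ITGA3, an alpha chain of laminin receptors, rose by 2.55 ± 0.38 in the IZ of Old Early, 1.56 ± 0.38 in that of Young Late and 2.46 ± 0.38 in that of Old Late. The receptor gene ITGA6 rose by 2.86 ± 0.64 in the IZ of Young Early. Of 15 genes for assembly and processing, 5 rose and 1 fell in Young Early IZ, 10 and 0 in Old Early IZ, 6 and 0 in Young Late IZ, and 9 and 1 in Old Late IZ. Between shams 2 of these were higher and 4 lower in Old than in Young pigs at 1 day, against 17% and 13.2% of all genes. Over time in Young shams 0 rose and 3 fell, against 4.53% and 4.65%. SERPINH1, the chaperone that folds procollagen, rose by 2.07 ± 0.28 in the IZ of Old Early and 1.59 ± 0.28 in that of Young Late. The collagen prolyl hydroxylase P4HA3 rose by 2.37 ± 0.41 in the IZ of Old Early, 3.57 ± 0.44 in that of Young Late and 5.20 ± 0.45 in that of Old Late. The breakdown list holds protease inhibitors of the TIMP family as well as degrading enzymes. Of its 18 genes, 9 rose and 1 fell in Young Early IZ, 11 and 2 in Old Early IZ, 11 and 0 in Young Late IZ, and 12 and 1 in Old Late IZ. The protease inhibitor TIMP1 rose by 6.47 ± 0.73 in Old Early IZ. In Young Early IZ, where no member was called, the collagen prolyl hydroxylase P4HA1 rose by 2.34 ± 0.31.

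Markers of the cells that make basement membranes also differed between groups, and their part in the results above was not tested. Of 10 endothelial markers tested, 7 rose in Old Early IZ and 6 in BZ, and 0 fell. Of all genes 18.9% and 13.5% rose there, and 14% and 7.73% fell. At 1 week 6 fell in Young Late IZ, 5 in Young Late BZ, 5 in the IZ of Old Late and 4 in its BZ, and 0 rose. In the same order 13.1%, 6.03%, 23.2% and 18.7% of all genes fell, and 17.3%, 8.66%, 24.3% and 19.5% rose. Their summed level lay between 471 and 479.6 CPM in Old Early Sham and between 796 and 1517 in Old Early IZ, and between 452 and 484 in Old Late Sham and 331 and 406 in Old Late IZ, with EGFL7 at 0 in every group. In Young Early, where no member was called, the endothelial sum was also higher in the zones. It lay between 579 and 599 CPM in Sham, 702 and 924 in IZ and 601 and 665 in BZ. Of 11 fibroblast markers 4, 7, 10 and 10 rose in IZ of Young Early, then Old Early, then Young Late and last Old Late, and 0 fell. Their summed level was 1121 to 1362 CPM in Old Late Sham and 13636 to 17237 in Old Late IZ, where LAMB1 was highest. Of 7 cardiomyocyte markers 5, 6, 5 and 6 fell in IZ of these conditions, with sums of 66028 to 75728 CPM in Old Late Sham and 17799 to 26575 in Old Late IZ. Of 9 macrophage markers 4, 5, 9 and 8 rose in IZ and 0 fell. Of 6 smooth muscle markers 1, 4, 5 and 5 rose and 2, 0, 0 and 1 fell, and of 8 pericyte markers 0, 4, 2 and 4 rose and 1, 0, 1 and 1 fell. Of all genes 26.4% were called in Young Early IZ. For rises and falls the shares were 18.9% and 14% in Old Early IZ, 17.3% and 13.1% in Young Late IZ and 24.3% and 23.2% in Old Late IZ. Several pericyte counts lay near or below these shares.

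Over the 12 group means the 8 genes moved in more than 1 pattern. Pearson's r of mean log2 CPM was 0.79 between COL4A2 and COL18A1, 0.77 between COL15A1 and LAMB1 and 0.80 between LAMA4 and HSPG2, and it was −0.65 between COL18A1 and NID1. The IZ and BZ points of a condition share pigs, so these values describe the 12 groups and carry no test. Among the 7437 named genes whose mean log2 CPM reached 3, the group means most like those of COL4A2 were of CLTA (r = 0.93), PXDN (0.93) and SHKBP1 (0.93), and of COL18A1 of DLGAP4 (0.97), SELENOM (0.96) and LENG9 (0.96). For LAMB1 they were of ARHGAP25 (0.97), SH2B3 (0.96) and CD163 (0.96), for NID1 of ADGRF5 (0.96), SPOCK2 (0.95) and EPAS1 (0.95), and for COL15A1 of JCAD (0.91), KIT (0.89) and CAV1 (0.88). For LAMC1 they were of ANKH (0.94), KANK1 (0.90) and AGAP1 (0.90), for LAMA4 of SENP6 (0.95), KRCC1 (0.94) and COG4 (0.93), and for HSPG2 of MIA3 (0.96), DENND5A (0.95) and DAB2IP (0.95).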

How the data were processed

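Stranded libraries of polyA RNA were sequenced from both ends, per the labels' protocols. Tools named in the submitters' processing notes are Trimmomatic 0.36, bcl2fastq 2.19.0.316, STAR and, for counting, featureCounts of Subread 1.5.1, and the genome build and strand setting are not given in the sources used here. Per the file headers, the authors deposited a read count for each gene, without normalization, with exonic length and coordinates. None of the 8 genes shares exon bases with another row. Symbols came from a reference table, which named 14857 of 25880 rows.

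Genes were filtered with filterByExpr (minimum count 10, minimum total 15), scaled by TMM and fitted with edgeR 4.0.16 in R 4.3.3, 1 mean per group, 24 residual degrees of freedom and 14537 genes. The IZ and BZ libraries of a pig entered this fit as independent, so it treats 36 libraries of 24 pigs as 36 replicates. IZ was compared with BZ in a fit with the pig, read from the sample titles, as a block (8 residual degrees of freedom, 14386 genes). A gene was called at a Benjamini-Hochberg adjusted p under 0.05 over all genes tested. CPM use TMM library sizes, and levels between genes are compared per kilobase of exonic length. Replicate numbers follow accession order and pair nothing. Pairs are the zones of 1 pig, with a correlation of 0.378 within pigs in limma-voom (limma 3.58.1). The scripts were tested on simulated data.

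The alternatives were DESeq2 1.42.0 size factors and test, no count filter, the compared groups alone, batch, RNA integrity, limma-voom with a random replicate block for the animal, no block, another animal for Old Late BZ replicate 3, whose labels conflict, other pseudocounts than 1 CPM, and each library left out. A fit without the libraries of highest and lowest total, and the 3 balances, were added after seeing the data. Planned balances of LAMA4 to LAMA2 and of COL4A1 to COL4A2 were not run, since LAMA2 and COL4A1 were not analysed here.

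The members and lists were chosen with earlier results of these data known. From each list the text may name the 2 called genes of largest change whose mean log2 CPM is not below 0, and for each member the 3 genes of highest r. Precision rests on 3 pigs per group and, for genes with few counts, on counting error.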

Additional observations from a re-analysis of the deposited data

Results flagged for a closer look

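The IZ response of COL4A2 in Young pigs was higher at 1 week than at 1 day by 1.1464 on the log2 scale (SE 0.32, edgeR adjusted p = 0.0216), and that of COL18A1 by 1.1757 (SE 0.36, edgeR adjusted p = 0.0311). Both stand out because the test of the difference between the responses at the 2 times passed. With preparation batch as a term both still passed, COL4A2 at 1.16 (edgeR adjusted p = 0.023) and COL18A1 at 1.16 (edgeR adjusted p = 0.0369). With RNA integrity as a covariate COL4A2 did not (edgeR adjusted p = 0.0589). Of 12 fits that each left out 1 library, the COL4A2 call was kept in 8 and the COL18A1 call in 3.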

How the results depend on the processing

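Of the 34 called values of members, 23 kept their call in each of the 7 other fits, 17 kept it without each library in turn, and 0 changed sign in any alternative. In limma-voom with a random replicate block for the animal, 33 of 34 calls were kept. With no replicate block 0 members were called between IZ and BZ in each condition, as in the blocked fit, and LAMB1 in Old Late was 0.59 (adjusted p = 0.195). Counts of called members changed by more than 1.5 times as follows, and the cause was not tested. Late Sham, Old minus Young, went from 2 to 1 with DESeq2 size factors, with no count filter and with batch as a term, and to 0 with RNA integrity as a covariate. The batch term sets batch 2 apart from the others, so it does not adjust Old Late for batch 3. Early Sham, Old minus Young, went from 2 to 1 with batch. With RNA integrity Old Late IZ went from 5 to 3, Old Late BZ from 4 to 2 and the Young IZ response, Late minus Early, from 2 to 1. With only the compared groups fitted, the Early IZ response, Old minus Young, went from 0 to 2, and Old Sham, Late minus Early, from 0 to 2. DESeq2 called 1 in each of these, 2 in the Early BZ response, Old minus Young, and 1 in Old Late IZ minus BZ. Without the libraries of highest and lowest total the Early BZ response, Old minus Young, had 3. Smaller changes also occurred. With no count filter Old Late IZ lost NID1 (adjusted p = 0.0518). Young Sham, Late minus Early, lost COL15A1 with no count filter, RNA integrity, the compared groups alone and limma-voom, and LAMB1 with batch. With the compared groups alone Young Late BZ lost COL4A2, Old Late BZ gained HSPG2, Early Sham, Old minus Young, gained LAMA4 (adjusted p = 0.0117), and the Young IZ response gained NID1, as it did with DESeq2, for a count of 3 in both. Without the libraries of highest and lowest total Young Late BZ lost COL4A2 and Young Sham lost COL15A1.

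Leaving out each library in turn gave 0 to 3 for the Young IZ response, Late minus Early, 0 to 4 for Young Sham, Late minus Early, 1 to 3 for Young Late BZ, 2 to 4 for Old Late BZ, 3 to 4 for Old Late IZ and for both zones of Old Early, 0 to 1 for Late Sham, Old minus Young, and the Early IZ response, Old minus Young, and 0 to 2 for the Early BZ response, Old minus Young. The LAMC1 value of Old Early IZ, −0.04, changed sign with RNA integrity (0.0003) and without IZ replicate 1, and ranged from −0.147 to 0.0212 as each library was left out. DESeq2 size factors moved no member by more than 0.076, and no fit used unscaled library totals. All 156 alternative values of the balances kept their direction. The lowest total, 8113200 counts, belongs to Young Late Sham replicate 2, which ends all 4 Young Sham calls when left out.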
